A study of Homo sapiens with 3 samples.

Results

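The regions described here are the acetylation peaks that were listed both in smoke-exposed and in air-exposed bladder cancer cells. They were chosen by the positions of the called peaks alone, and their number and overlap are given as a description. A smoke peak was counted as shared when it overlapped an air peak by at least 1 bp on the same chromosome, and the overlapped air peak was its partner. There were 380 shared peaks among 23975 in smoke (1.58%) and 380 among 27010 in air (1.41%). Each shared smoke peak met 1 air peak and each shared air peak met 1 smoke peak, so they formed 380 pairs. The cells were UMUC3, an established human bladder cancer line grown in medium with serum. The smoke group was labelled as treated with cigarette smoke and, per the series text, received 10% smoke media for 3 days. The air group was labelled air, and an input library, not used here, completed the 3. A treatment note naming smoke media stands on every library, so the groups rest on the treatment label. Chromatin of both groups was pulled down with antibodies to acetylated lysine 130 of histone H2A and sequenced (ChIP-seq). Each group had only 1 library, so differences could not be checked in replicates and no test was made. All intervals given are 95% intervals and cover counting error only.

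Histone H2A is 1 of the core proteins around which DNA is wrapped in the nucleosome. Its C-terminal tail, where this lysine lies, emerges near the place where DNA enters and leaves the nucleosome. Acetylation removes the positive charge of a lysine, and acetylated histone tails are bound by bromodomain proteins and are best known from promoters and enhancers of active genes. A ChIP-seq peak is a stretch where immunoprecipitated DNA fragments pile up above a background, and its summit is the base with the highest pile.

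Pairs were not found over promoters on the chromosomes that could be checked. Of the 350 pairs on chromosomes with RefSeq promoter windows (GRCh38.p14, 250 bases before to 50 after a gene's start, 35116 windows), 0 touched a window, which allows a share of up to 0.857%. Among unshared peaks 0.410% of smoke (0.334 to 0.503) and 0.464% of air peaks (0.387 to 0.557) touched one. At this number of pairs a lower share was therefore not detectable. Within 1 kb of a window lay 8 pairs. The nearest to windows of protein-coding genes lay just downstream, at CNTN6, BOD1L1 and TAS2R7, with edges 50, 379 and 535 bp from the window. The 250 bases before those starts are shown because, of the protein-coding windows used, they are the nearest to any pair (a window need not sit at the end of the gene's span, and that of SLC39A10 lies 43294 bp from its pair); capitals mark CG dinucleotides, and each is read 5′ to 3′ on the gene's strand in GRCh38.p14. The CNTN6 stretch is chr3:1092774-1093023 (plus strand), that of BOD1L1 is chr4:13627726-13627975 (minus strand) and that of TAS2R7 is chr12:10802628-10802877 (minus strand).
CNTN6: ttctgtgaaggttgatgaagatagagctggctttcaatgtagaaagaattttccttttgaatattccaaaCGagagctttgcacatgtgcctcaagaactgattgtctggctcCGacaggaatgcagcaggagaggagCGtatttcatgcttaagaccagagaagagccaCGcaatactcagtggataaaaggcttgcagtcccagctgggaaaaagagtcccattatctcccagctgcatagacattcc
BOD1L1: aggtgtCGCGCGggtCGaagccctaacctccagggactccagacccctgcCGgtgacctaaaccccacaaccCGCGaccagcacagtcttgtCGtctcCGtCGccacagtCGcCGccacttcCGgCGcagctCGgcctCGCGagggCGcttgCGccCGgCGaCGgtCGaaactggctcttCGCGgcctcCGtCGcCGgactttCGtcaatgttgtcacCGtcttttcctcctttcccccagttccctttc
TAS2R7: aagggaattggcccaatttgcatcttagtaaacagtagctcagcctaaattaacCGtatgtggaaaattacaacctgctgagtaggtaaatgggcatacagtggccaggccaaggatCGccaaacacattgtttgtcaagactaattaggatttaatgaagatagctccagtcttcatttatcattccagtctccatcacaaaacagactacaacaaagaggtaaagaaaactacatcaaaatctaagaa

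The promoters differ in base composition. BOD1L1 held 30 CG dinucleotides, CNTN6 4 and TAS2R7 2, against a median of 11 over the same 250 bases of all 35116 windows. Their GC content was 65.6%, 45.2% and 38.4%, against a median of 58.0%. The motif TATAAA, searched on both strands, was in none of these stretches and in 10.7% of all of them.

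Within 1 kb of either end of a protein-coding gene lay 6 of the 380 pairs, 1.58%, close to the share of unshared smoke (1.58%, 1.43 to 1.75) and air summits (1.87%, 1.72 to 2.04). CNTN6, a contactin of the immunoglobulin family that acts in neuronal adhesion, had its overlap at chr3:1093174-1093358. The smoke peak there had a fold of 5.37 and the air peak 4.06, with summits 21 bp apart. The fold is the authors' enrichment over background and is read within its own list only. SLC39A10, a zinc importer gene, had an overlap at chr2:195613164-195613324 with folds of 4.30 in smoke and 5.80 in air and summits 2 bp apart, the closest of the 6. BOD1L1, which protects stalled replication forks, had folds of 4.84 in smoke and 2.61 in air at chr4:13627045-13627201. Its air peak had only 4 fragments, and the authors' q there was above 0.05 (−log10 q 0.68). TAS2R7, a bitter taste receptor gene of 1.10 kb, held its pair at chr12:10801717-10801873 with folds of 4.30 and 4.64. RBSN, which encodes the endosomal protein rabenosyn-5, had its pair just outside the gene at chr3:15069579-15069728 (folds 3.76 and 5.22). PCDHB4, a clustered protocadherin gene, had a 24 bp overlap inside the gene near its upper end, at chr5:141125504-141125527 (folds 4.84 and 4.06). The q of the RBSN smoke peak was also above 0.05 (−log10 q 1.24). The pairs at CNTN6, SLC39A10, TAS2R7 and PCDHB4 had a q of 0.05 or lower in both libraries. The gene table held spans without exons, so exon, intron and UTR positions are not given for any pair.

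The overlaps were partial in most pairs. The median overlap was 152 bp (147 to 161), and it ran from 1 to 475 bp. It made up a median of 59.6% of the smoke peak and 44.4% of the air peak. The smoke peak lay wholly inside the air peak in 76 pairs and the air peak inside the smoke peak in 33, while 271 pairs overlapped at 1 side. No pair had identical edges. In 125 pairs each summit lay inside the other peak, and in 102 neither did. The longest overlap, 475 bp, was inside SPAG16, a gene of the sperm axoneme, where the summits were nevertheless 554 bp apart. Next came pairs inside the zinc finger gene ZNF529 (442 bp), near the heparan sulfate enzyme gene NDST4 (441 bp, 11.2 kb away), near HTD2 (389 bp, 5.71 kb away) and near the homeobox gene ALX1 (371 bp, 236.6 kb away).

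The summits of a pair were not drawn to the same base. The median offset was 145 bp (132 to 162; quartiles 72 and 227), and the largest was 793 bp. Offsets of 0 to 49 bp were seen in 62 pairs, 50 to 99 bp in 70, 100 to 149 bp in 63 and 150 to 199 bp in 59. The count per base was thus nearly flat out to 200 bp and thinned from there, with 41 pairs at 200 to 249 bp and 27 at 250 to 299 bp. Peaks with summits further apart meet less readily, so this thinning is tied to the overlap rule. The summits fell on the same base in 2 pairs, 1 of them inside KCNIP1, a regulator of potassium channels (folds 3.76 in smoke and 3.48 in air), and the other 496.8 kb from DHX35. The air summit lay to the right of the smoke summit in 186 pairs, 48.9% (44.0 to 54.0). KCNIP1 and DHX35 were picked with their values known.

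Counting every smoke summit against every air summit, whether or not the peaks overlapped, gave 132 combinations 0 to 99 bp apart, 127 at 100 to 199 bp and 121 at 200 to 299 bp. The number then declined to 96, 73 and 92 in the next bins of 100 bp. From 600 to 1999 bp each bin held between 56 and 76 combinations, and the average was 58.7 per 100 bp at 10 to 20 kb and 57.1 at 50 to 100 kb. Smoke and air summits were thus denser under 300 bp than in any bin past it, with no narrower maximum inside that range. All of the combinations under 100 bp were shared pairs, and so were 122 of those at 100 to 199 bp and 68 at 200 to 299 bp. Summits of the same list, which cannot overlap, stood at 24 to 40 per 100 bp in smoke between 500 and 1999 bp, against 26.3 at 10 to 20 kb, and at 29 to 51 in air, against 34.5.

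**Figure D1:**
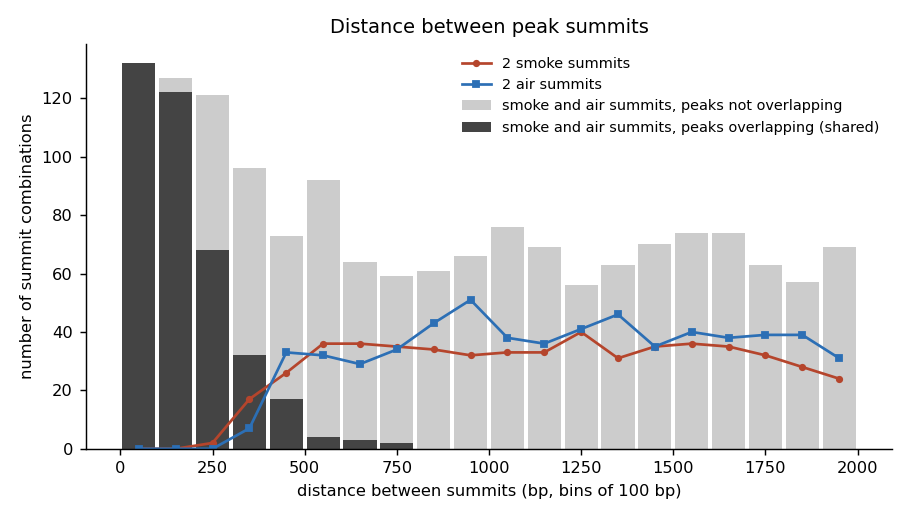
Number of summit combinations (y axis) by the distance between summits in bins of 100 bp (x axis); bars are smoke-air combinations, dark where the peaks overlapped, and lines are combinations within the smoke or the air list. The first 3 bars hold 132, 127 and 121 combinations, and the bars from 600 bp on hold 56 to 76.

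The overlap rule has a border, and these are the values on either side of it. The 5 pairs that overlapped by 10 bp or less had smoke folds of 2.85 to 4.60, air folds of 2.90 to 5.53 and summits 166 to 607 bp apart. Of these, 4 lay inside CALN1, a calcium-binding protein gene, and 37.7 to 623.8 kb outside the nearest protein-coding genes HS3ST3B1, MMADHC and RALYL. In 12 combinations the peaks missed each other by a gap of 10 bp or less, with smoke folds of 3.22 to 5.91, air folds of 3.20 to 5.22 and summits 223 to 585 bp apart. DLG2 was among the near misses, with a smoke peak at chr11:84038598-84038766 and 1 base between it and the air peak. So were FOXP2, a transcription factor gene, and a place 31642 bp from GRM5, a glutamate receptor gene.

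Few fragments lay at the summits of shared peaks. The deposited fold and −log10 p of a peak together fix a whole number of fragments at the summit and a background level, and exactly 1 whole number matched for every peak of both lists. In the shared smoke peaks the summit held a median of 6 fragments (quartiles 6 and 7, range 4 to 12), and in the shared air peaks also 6 (quartiles 5 and 7, range 3 to 12). A count of 6 has an exact Poisson interval of 2.20 to 13.1. Unshared peaks had the same medians, and their highest values were 119 in smoke and 15 in air. The most heavily covered peak of each list thus had no partner. Unshared peaks were far more numerous than shared peaks, with 23595 in smoke and 26630 in air. A larger set reaches a higher maximum more readily, so these maxima are not read as a difference between shared and unshared peaks. Pairs with 6 fragments in both libraries were the most frequent (33 pairs), followed by 6 in smoke with 5 in air (32) and 7 with 6 (30). The highest smoke count, 12, was inside CRLS1, the cardiolipin synthase gene (smoke fold 6.61, air fold 3.81). The highest air count, also 12, lay 20.4 kb from ZSWIM5 (smoke fold 3.91, air fold 6.86); both genes were picked with their values known.

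**Figure D2:**
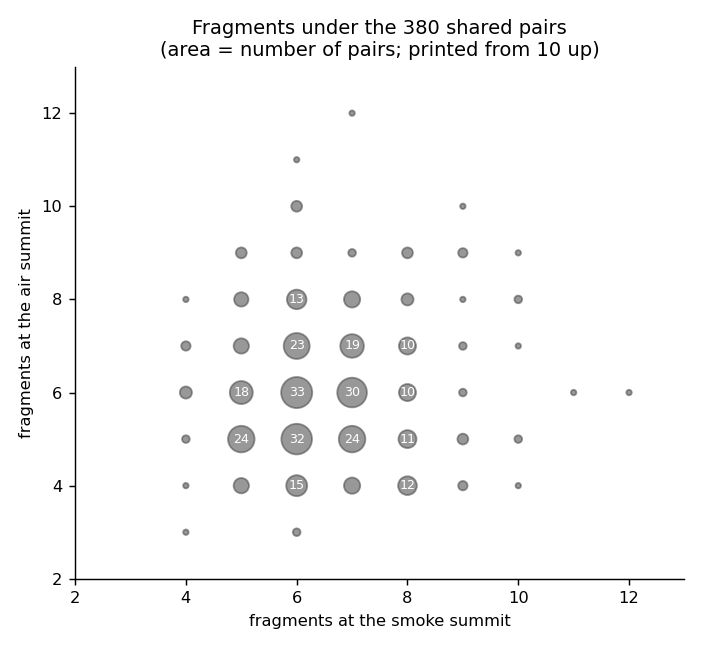
Fragments at the smoke summit (x axis) and at the air summit (y axis) of the 380 pairs; circle area gives the number of pairs, printed from 10 pairs up. The pairs crowd around 5 to 7 fragments in each library, with 33 pairs at 6 and 6, and show no diagonal.

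Within a pair the values of smoke and air showed little linear relation. Over the 380 pairs Pearson's r between smoke and air was -0.04 for fold, 0.05 for fragments and -0.09 for width (Spearman's rho -0.03, 0.03 and -0.09). These are descriptions over pairs that share a library on each axis, and few whole fragment numbers leave little range. The authors' q was 0.05 or lower in both libraries for 96 pairs, 25.3% (21.2 to 29.9), and above 0.05 in both for 91. The shared smoke peaks reached that q in 42.9% (38.0 to 47.9) and the unshared in 44.4% (43.8 to 45.0). In air the shares were 58.4% (53.4 to 63.3) and 60.4% (59.8 to 61.0). The median fold was 3.76 in shared and in unshared smoke peaks, and 4.04 (3.65 to 4.06) in shared and 3.93 (3.92 to 3.95) in unshared air peaks.

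Shared peaks were wider, a property the overlap rule favours since a wider peak meets another more readily. In smoke the median width was 240.5 bp (229 to 257) for shared and 225 bp (224 to 227) for unshared peaks. In air it was 323 bp (308 to 338) and 277 bp (275 to 278). Widths of 500 bp or more were found in 5.79% of shared (3.85 to 8.61) and 3.27% of unshared smoke peaks (3.05 to 3.50). In air they were found in 57 of the 380 shared peaks and in 7.38% of unshared ones (7.07 to 7.70). With each list cut into 5 groups by width, 0.906% of the narrowest air peaks had a partner (0.686 to 1.20) and 2.23% of the widest (1.87 to 2.66). In smoke it was 1.38% (1.09 to 1.75) and 2.15% (1.78 to 2.60). With 5 groups by fold there was no such slope: the share was 1.53% in the lowest and 1.49% in the highest smoke group, and 1.39% and 1.54% in air.

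The background under shared peaks was more often at its lowest. The lowest background in a list was 0.861 fragments in smoke and 0.724 in air, and 71.1% of shared smoke peaks (66.3 to 75.4) stood on it, against 64.6% of unshared ones (64.0 to 65.2). In air it was 69.2% of shared (64.4 to 73.6) and 53.6% of unshared peaks (53.0 to 54.2). In 231 of 380 pairs both peaks stood on the lowest background. Both lists carry the same control code in their names, and the part of a common control in the overlap was not tested.

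The pairs lay where peaks of both libraries were dense. A shared smoke peak had a median of 23 other smoke peaks within 1 Mb (22 to 24), an unshared one 20 (19 to 20). In air the medians were 27 (25 to 28) and 23 (22 to 23). Among smoke peaks with 0 to 12 smoke neighbours within 1 Mb, the lowest of 5 groups, 0.850% were shared (0.630 to 1.15). Among those with 29 to 74, the highest group, it was 2.35% (1.95 to 2.83). In air the share went from 0.899% (0.687 to 1.18) to 2.10% (1.74 to 2.52). A further peak of either list stood within 2 kb of 12.6% of shared smoke peaks, their partners not counted (9.66 to 16.3), and of 8.90% of unshared ones (8.54 to 9.27). A dense stretch offers more peaks to meet, so this dependence is built into an overlap.

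**Figure D3:**
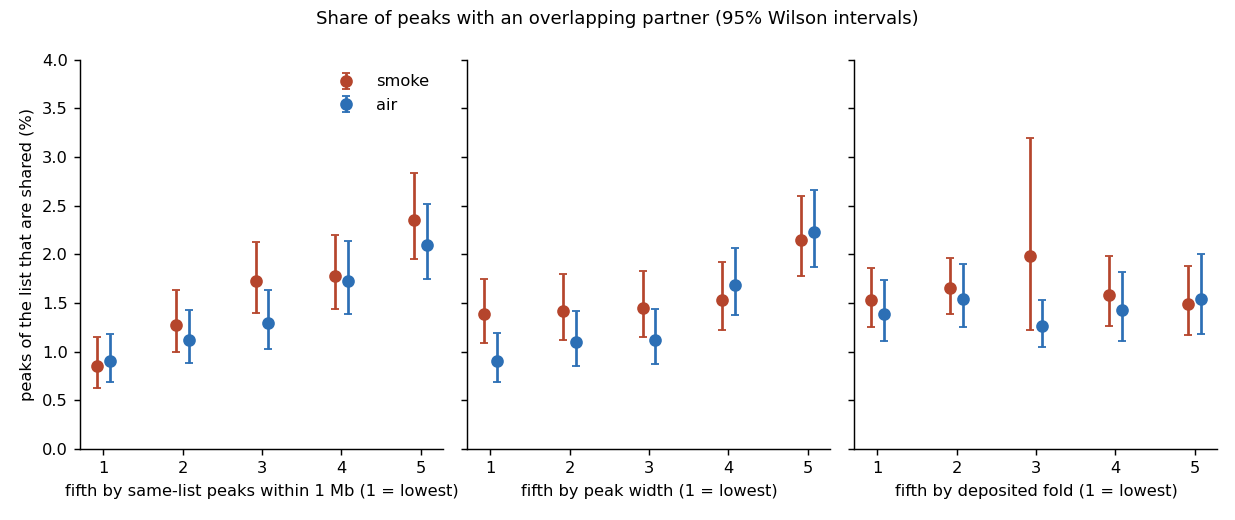
Share of smoke and air peaks that had an overlapping partner (y axis, percent; points with 95% Wilson intervals) in 5 groups from low to high by same-list peaks within 1 Mb, by peak width and by deposited fold (x axes; groups by fold are unequal in size because of tied values). The smoke share goes from 0.850% to 2.35% with the number of neighbours, and by fold the intervals of all groups overlap.

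The pairs themselves were scattered. The median distance from a pair to the next pair was 1.85 Mb (1.46 to 2.14). Another pair lay within 100 kb of 18 pairs, 4.74% (3.02 to 7.36), while 3.81% of unshared smoke peaks (3.57 to 4.06) and 3.82% of unshared air peaks (3.60 to 4.06) had a pair that near. Within 10 kb it was 4 pairs, and no stretch of 1 Mb held more than 3. The tightest group was 3 pairs in 16.8 kb of chromosome 7, at 119597324 to 119597460, 119598849 to 119599001 and 119614125 to 119614210. It lay outside all genes, 658.7 to 675.5 kb from KCND2, a voltage-gated potassium channel gene. The smoke folds there were 3.76, 4.30 and 3.82 and the air folds 4.64, 3.48 and 3.48. A second group of 3 spanned 99.9 kb between PEG10, an imprinted gene, and PPP1R9A, the neurabin gene, on the same chromosome. The 2 pairs within 10 kb of each other in a gene lay in CNTN1, 8.37 kb apart.

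Pairs were unevenly spread over the chromosomes. Chromosome 12 held 37, chromosome 3 held 33, chromosome 7 held 32, chromosome 13 held 31 and chromosome 8 held 30. These 5 carried 42.9% of the pairs, 31.0% of all smoke peaks and 31.5% of all air peaks. They were picked for holding the most pairs, so part of that excess is built in. On chromosome 13, 2.74% of smoke peaks were shared (1.94 to 3.87), and on chromosome 12, 2.59% (1.88 to 3.55). On chromosome X, with 3 pairs, it was 0.485% (0.165 to 1.42), on chromosome 10 it was 0.739% (0.375 to 1.45), and on chromosome 2, with 18 pairs, 0.951%. The intervals of chromosomes 13, 12, X, 10 and 2 left out the smoke share over the whole list, and those of the other 18 did not. Chromosomes 13 and 12 also had the densest smoke peaks, 11.5 and 10.8 per Mb, and chromosome X had 3.97. Over 23 chromosomes Pearson's r between smoke peaks per Mb and the share shared was 0.50 (Spearman's rho 0.49). For air the values were 0.45 and 0.48. The chromosomes share both libraries, and these are descriptions. Chromosome 19, with few peaks (4.76 per Mb in smoke) and a share of 2.58% (1.26 to 5.23) on 7 pairs, did not follow that order. Nor did chromosome 6, with 10.6 smoke peaks per Mb and a smoke share of 1.16% (0.759 to 1.76) on 21 pairs.

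**Figure D4:**
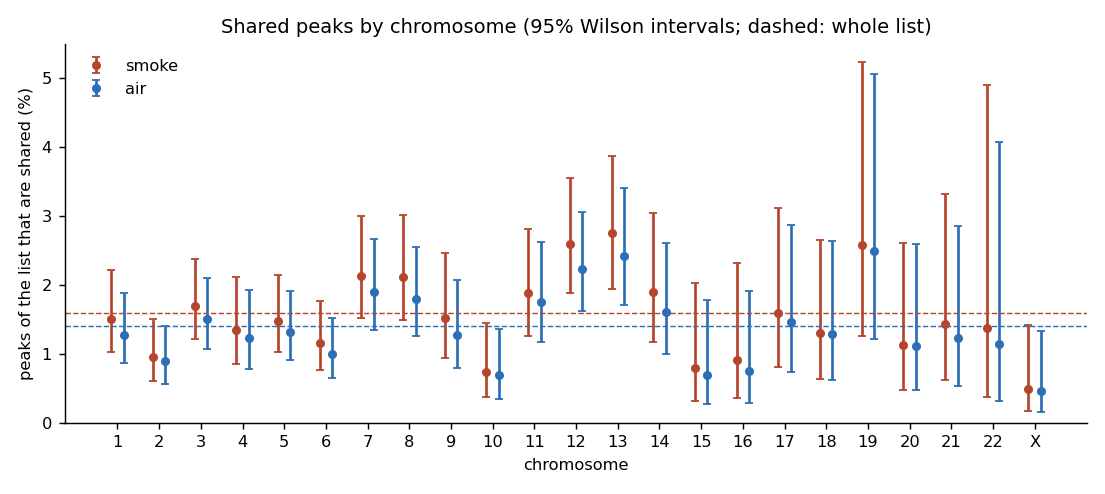
Share of smoke and air peaks that had a partner (y axis, percent; points with 95% Wilson intervals) by chromosome (x axis); dashed lines give the share over the whole list. Chromosomes 12 and 13 lie above the smoke line of 1.58% with their whole interval, and chromosomes 2, 10 and X below it.

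Shared pairs lay outside genes more often than other peaks did. Of 380 pairs 191 lay outside every gene span, 50.3% (45.3 to 55.3), against 42.1% of unshared smoke (41.5 to 42.7) and 41.9% of unshared air peaks (41.3 to 42.5). The difference was on the side of protein-coding genes, which held 34.2% of pairs (29.6 to 39.1), 42.8% of unshared smoke (42.2 to 43.5) and 43.4% of unshared air peaks (42.8 to 44.0). Long noncoding RNA genes outside any protein-coding gene held 14.2% of pairs (11.1 to 18.1), 13.9% and 13.6%. Among smoke peaks outside genes 1.90% were shared (1.65 to 2.18), and among those inside protein-coding genes 1.27% (1.07 to 1.51). Unshared smoke peaks lay inside a gene in 61.2% of cases in the group with the fewest neighbours and in 51.5% in the group with the most. Weighted to the neighbour groups of the shared peaks, 56.8% of unshared smoke peaks lay inside a gene (57.9% unweighted). In air it was 57.0% (58.1% unweighted), and both were still above the 49.7% of pairs (44.7 to 54.7). The gap was smallest in the groups with the most neighbours. There 50% of shared smoke peaks (40.7 to 59.3) lay inside a gene, against 51.5% of unshared ones. For air peaks it was 46.8% (37.8 to 56.1) against 51.9%. In every neighbour group of both lists the shared value was the lower, but its interval took in the unshared value. No single group therefore sets them apart. Pairs outside protein-coding genes were a median of 171.2 kb from the nearest one (111.7 to 219.2), unshared smoke peaks 134.2 kb (129.0 to 139.5) and unshared air peaks 128.2 kb (124.1 to 133.7). The interval of the pairs takes in both medians of the unshared peaks, so these distances do not set them apart.

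**Figure D5:**
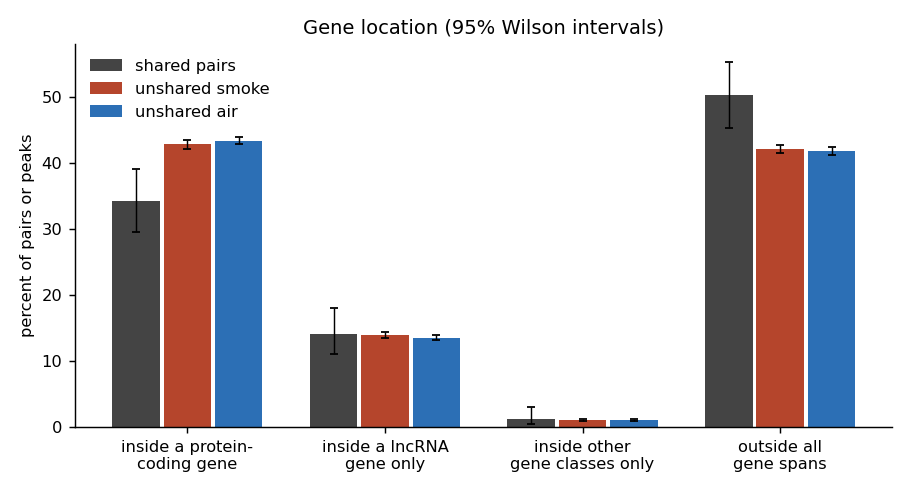
Percent of shared pairs, unshared smoke peaks and unshared air peaks (y axis) in 4 exclusive location classes (x axis); bars start at 0 and carry 95% Wilson intervals. Pairs stand at 34.2% inside protein-coding genes and 50.3% outside genes, with intervals apart from those of the unshared peaks.

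In all, 121 of 20037 protein-coding genes (0.604%) held a pair inside their span. Pairs also lay inside 65 long noncoding RNA genes. No share over all such genes is given, so that count is not read further. Every one of the 121 also had summits of both lists, which a pair inside a gene nearly always brings with it. They made up 4.23% (3.55 to 5.03) of the 2863 genes with summits of both. The genes with a pair were long, with a median of 204.4 kb (149.3 to 291.2), against 24.1 kb for all protein-coding genes. For genes with summits of both lists and no pair the median was 155.0 kb (149.1 to 159.9). The interval of the genes with a pair takes in that value, so the medians do not set these 2 groups apart. Genes of 500 kb or more made up 27.3% (20.1 to 35.8) of those with a pair. Among genes with summits of both lists and no pair they made up 9.77% (8.72 to 10.9). Of all 315 genes that long, 33 held a pair, 10.5% (7.56 to 14.3). Per length, they held 1.64 pairs per 10 Mb, and the 4 shorter length classes 0.783 to 0.917. They were also richer in peaks of smoke, with 97.7 per 10 Mb against 58.0 to 86.0. Inside these long genes 1.68% of smoke peaks were shared (1.25 to 2.25), and inside shorter ones 1.13% (0.920 to 1.40), with overlapping intervals.

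Only 10 genes (0.0499%) held 2 or more pairs, and 9 of them were longer than 500 kb. DLG2, which encodes a scaffold of the postsynaptic density and spans 2173 kb on chromosome 11, held 3 pairs among 42 smoke and 44 air peaks. Its smoke folds were 2.20, 2.84 and 3.22 and its air folds 5.51, 4.06 and 2.90 at 84342385 to 84342665, 84448146 to 84448240 and 85303811 to 85303838. The first of them had 6 smoke and 11 air fragments. LRRC4C, a ligand of netrin-G, held 2 pairs among 27 smoke and 25 air peaks, and CSMD3, a giant gene of complement-like domains, 2 among 28 and 29. CNTN1, contactin 1, held 2 among 14 smoke and 9 air peaks and was the shortest of the 10. Its overlaps were chr12:40764290-40764371 (smoke fold 3.76, air fold 5.22) and chr12:40772645-40772750 (4.30 and 3.48). NBEA, neurobeachin, a protein of synaptic membrane traffic, held 2 pairs 20.6 kb apart among 13 smoke and 22 air peaks, and the air peak of the first had 10 fragments and a fold of 6.38. The others were CNTNAP5 of the neurexin family, NAV3, the glycosyltransferase gene MGAT4C, NALF1, a partner of the sodium leak channel, and VPS13B, a lipid transfer protein gene of the Golgi, with 8 to 22 peaks of either library each. No pair of DLG2, CNTN1 or NBEA had a q of 0.05 or lower in both libraries, which also held for most of all pairs.

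The 10 pairs ranking highest in both lists lay inside 4 genes and outside genes in 6 cases. The first lay 453.0 kb from ALG10B on chromosome 12 at 37863554 to 37863753, with 9 fragments in each library (folds 5.37 and 5.21), and had a second pair 19.9 kb away. It stood in a peak-rich stretch of 354.1 kb that held 3 pairs, 20 smoke summits and 17 air summits. Those 31.2 kb from GK5, a glycerol kinase gene, and 408.0 kb from ARRDC3, an arrestin-like gene, each had 10 smoke and 8 air fragments (folds 5.91 and 5.22). A pair 671.4 kb from CXADR, an adhesion and virus receptor gene, had 9 and 9. ACSS3, a mitochondrial acyl-CoA synthetase gene, held a pair of 8 smoke and 9 air fragments with summits 9 bp apart, the closest of the 10. TMEM67, which encodes a protein of the primary cilium, held one with a 355 bp overlap at chr8:93774462-93774816 (folds 4.84 and 5.21). NRDC, the nardilysin protease gene, had folds of 5.37 and 4.69 with only 21 bp of overlap. RALGPS2, an activator of Ral GTPases, had folds of 4.84 and 4.64 over 197 bp. The remaining pairs lay 16.3 kb from PSG8, a pregnancy-specific glycoprotein gene, and 510.1 kb from ST8SIA4, a polysialic acid synthase gene.

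Of 16 gene lists with 442 genes, 6 had a gene with a pair. Their counts stand against 0.604% of all protein-coding genes and 4.23% of those with summits of both lists. Common fragile site genes, very long genes that break under replication stress, had the largest share: 4 of 28 (14.3%), namely DLG2, NBEA, NAALADL2 and PTPRD. All 28 had summits of both lists, and the share was close to the 10.5% of all genes of 500 kb or more. PTPRD, a receptor tyrosine phosphatase gene, had its pair at chr9:9039770-9039914 (smoke fold 3.76, air fold 3.48), and NAALADL2 at chr3:174952315-174952478 (4.80 and 4.06). Axon guidance and synaptic adhesion genes had 4 of 57 (7.02%): CNTN1, CNTN5, CNTN6 and CNTNAP5, all of the contactin and contactin-associated families, and 39 of the 57 had summits of both lists. Cadherins and protocadherins had 1 of 41, with summits of both lists in 21 (PCDH7, folds 4.30 and 3.48). PCDHB4, the clustered protocadherin gene named above that also held a pair, was not on that list. Glutamate and GABA receptors had 1 of 44, with both in 25 (GRM8, folds 4.29 and 4.06). Acyl-CoA synthetases had 1 of 26, with both in 6 (ACSS3). A single gene is too few to set these 3 lists apart from the background.

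In the DNA damage response 1 of 42 genes held a pair (8 had summits of both lists), ATR, the kinase that answers stalled replication forks. Its overlap at chr3:142575929-142576092 had 8 fragments in each library (smoke fold 4.56, air fold 3.56) with summits 362 bp apart. POLQ, the polymerase of an end-joining repair pathway, was not on the list and held a pair at chr3:121529636-121529916 (4.23 and 3.44). Other genes outside the lists also held a pair: KDM7A, a histone demethylase gene, held a pair with summits 10 bp apart (3.82 and 4.17), SMCHD1, a silencing factor of the inactive X chromosome, one with summits 52 bp apart (4.30 and 4.64), and SENP7, a SUMO protease gene, one 318 bp apart (4.30 and 3.48). These genes outside the lists were picked with their values known, and no count or theme rests on them.

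The other 10 lists held no pair. None of 30 fatty acid synthesis genes held one, FASN included, although 6 of them had summits of both lists. The counts were also 0 of 34 for fatty acid oxidation (3 with both), 0 of 28 for xenobiotic response (0 with both), 0 of 42 for histone acetylation and H2A genes (8 with both) and 0 of 36 for bladder cancer genes (9 with both). Luminal and basal urothelial markers had 0 of 10 and 0 of 8, and neuron, hepatocyte and blood markers 0 of 12, 0 of 10 and 0 of 10. At the background of 0.604% of all genes, lists of this size hold too few genes for a count of 0 to stand apart.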

How the data were processed

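The deposited files were 1 peak list per immunoprecipitated library in narrowPeak layout. Tools named per the submitters' processing notes were Bowtie2 with MACS and MACS2, and the builds hg38 and mm10; their versions and settings, and how the lists were filtered, were not given in the sources used here. Chromosomes numbered to 22 are human, so positions are taken as hg38. The deposited score is the whole part of 10 times the −log10 p. The deposited fold ratio and the deposited −log10 p and q values are those of the authors' peak caller, and a further column gives the summit.

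Pairs, distances and gene locations were computed with Python 3.11.15, pandas 2.3.3 and scipy 1.17.1, with figures by matplotlib 3.10.9, and the overlap and fragment steps were tested on simulated data. The fragment number n and background b solve fold = (n + 1)/(b + 1) and p = P(X > n) for a Poisson count of mean b, within a relative tolerance of 1e-05 on −log10 p; it is a reconstruction. Total read depth is unknown. Shares carry Wilson and medians exact binomial order-statistic intervals.

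Gene spans came from RefSeq (GRCh38.p14), with pairs placed by the midpoint of the overlap and unshared peaks by the summit. All 442 list genes matched, 441 by symbol and 1 by synonym. Genes were named by rule: the 10 pairs highest in both lists, genes with 2 or more pairs, genes with a pair within 1 kb of an end, list genes with a pair, the 5 longest overlaps, pairs within 10 bp of the overlap border (the gene next to 1 of them is not reported here), and the densest group of pairs. A few further genes were picked with their values known, as the text says where it names them. The members and lists were chosen with earlier results of these data known. Alternatives covered stricter thresholds, overlap definitions, chromosome X, gene classes, placement and distance.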

Additional observations from a re-analysis of the deposited data

How the results depend on the processing

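Leaving out chromosome X left 377 pairs and changed none of the other 7 summary values beyond its interval. At a −log10 q of at least 2 in both lists 16 pairs were left, with median widths of 327.5 bp in smoke and 348 bp in air, folds of 4.84 and 5.21, 43.8% inside genes (23.1 to 66.8) and 0 with another pair within 100 kb. At a fold of at least 5 in both lists 4 pairs were left, with widths of 291 and 340.5 bp, an offset of 173 bp, folds of 5.64 and 5.22, and 0 inside genes or near another pair. Both thresholds select on fold. Requiring 50% of the shorter peak left 267 pairs and a median offset of 117 bp. Requiring 50% of both left 126 peaks of each list, with widths of 274 and 294 bp, an offset of 83 bp and 1.59% with another pair within 100 kb. Summits within 150 bp gave 199 pairs, with widths of 227 and 291 bp and an offset of 76 bp. Under these 3 overlap definitions the share inside genes ran from 46.2% to 49.1%; in protein-coding genes alone it was 34.2%. Another pair lay within 1 Mb of 35.3% of pairs and within 10 kb of 1.05%. No replicate could be left out, and no paired analysis was possible because each group has 1 library. Depth is a limit: at a median of 6 fragments a summit count is known only to 2.20 to 13.1.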
